A study of Mus musculus with 8 samples.

Results

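Neurexins, neuroligins and leucine-rich repeat transmembrane (Lrrtm) proteins hold the 2 sides of a synapse together, and this account follows 9 of their genes in the mature mouse primary motor cortex (M1) after knockdown of the transcription factor Fezf2. The members were chosen by name: 2 neurexins (Nrxn2 and Nrxn3), 3 neuroligins (Nlgn1, Nlgn2 and Nlgn3) and 4 Lrrtm genes (Lrrtm1, Lrrtm2, Lrrtm3 and Lrrtm4). They are 9 of the 38031 genes in the table and hold 55 of its 91320 annotated transcripts, and all 9 passed the filter on low counts that left 9959 genes for testing. Each gene was followed through its transcript with the lowest Ensembl number, and its shorter and longer transcripts were then compared.

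The study sequenced total RNA from M1 of male wild-type Swiss Webster mice. Both groups of 4 mice had been injected between postnatal day 21 and 25 with a lentivirus in which the Synapsin I promoter, active in neurons, drove an mCherry reporter together with a hairpin. The hairpin was Fezf2 shRNA in 1 group and a non-silencing shRNA in the control group, and tissue was taken at postnatal day 49 to 53, 4 weeks after injection. M1 was dissected by its mCherry signal and held transduced and untransduced cells of all kinds, so fewer cells of a type and less RNA per cell cannot be told apart. Nothing in the sources used here ties a library to more than 1 mouse or a mouse to a litter, and the p-values measure the spread between these libraries.

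Neurexins sit mainly on the presynaptic side and exist as long alpha and short beta proteins made from separate promoters of the same gene. Neuroligins and Lrrtm proteins are their best-known postsynaptic partners: Nlgn1 and the Lrrtm proteins work mainly at glutamatergic synapses, Nlgn2 at inhibitory synapses, and Nlgn3 at both. Lrrtm1, Lrrtm2 and Lrrtm3 lie inside introns of alpha-catenin genes, on the opposite strand.

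The 3 promoter sequences printed here belong to genes whose transcript intervals carry the results: an upstream and the beta promoter of Nrxn3 and the first promoter of Lrrtm4. The promoter table lists 3 starts for Nrxn3 and 2 for Lrrtm4. Shown are the Nrxn3 start nearest to that of the transcript followed here, the start of the beta intervals, and the Lrrtm4 start at which its widest interval begins. Each is the 150 bases just before a RefSeq start on the plus strand of GRCm38.p6, with none of the bases in an annotated exon of the gene. They lie at chr12:88953240-88953389, chr12:89812333-89812482 and chr6:80018727-80018876. The capitals mark a TATA box (TATAAA on either strand). A GC box (GGGCGG) and CCAAT were also searched and were not found in these windows. The lines read 5′ to 3′.
Nrxn3 upstream: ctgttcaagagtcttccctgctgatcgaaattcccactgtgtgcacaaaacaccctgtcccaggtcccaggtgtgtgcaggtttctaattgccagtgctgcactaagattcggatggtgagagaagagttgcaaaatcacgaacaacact
Nrxn3 beta: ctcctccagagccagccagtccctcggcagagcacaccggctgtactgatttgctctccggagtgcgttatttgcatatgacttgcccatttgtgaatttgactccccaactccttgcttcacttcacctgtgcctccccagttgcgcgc
Lrrtm4: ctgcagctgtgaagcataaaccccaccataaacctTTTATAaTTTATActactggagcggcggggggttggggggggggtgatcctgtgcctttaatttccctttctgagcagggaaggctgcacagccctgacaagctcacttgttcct

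Over the 250 bases before each start, the TATA box occurred in 12.4% of all 32851 promoters in the table, the GC box in 32.7% and CCAAT in 33.8%. The Lrrtm4 window held 2 copies of the TATA letters on the minus strand and the Nrxn3 windows none. CpG dinucleotides numbered 5 before the upstream start of Nrxn3, 12 before its beta start and 3 before the Lrrtm4 start, against a median of 6 over all promoters. The promoter table matched 6 of the 9 members. Nrxn2, Nlgn3 and Lrrtm2 had no entry.

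Total counts over the gene table were 54684016 to 58003814 per library, so depth was nearly even. The targeted gene Fezf2 had 723 ± 35.4 normalized counts (SD, n = 4) in the control libraries and 591 ± 22.1 (n = 4) in the Fezf2 shRNA libraries, with no overlap between groups. Its log2 fold change was -0.29 with SE 0.08 and an adjusted p of 0.0824 in edgeR's quasi-likelihood test. DESeq2 with its prior gave -0.25 (adjusted p = 0.0256). With the offset for gene length described below, edgeR gave -0.18 (adjusted p = 0.459). Fezf2 spans 3.86 kb, and the median of all genes under 10 kb was -0.12. Of the 9959 genes, 195 were past the threshold and higher in the Fezf2 shRNA group, and 13 were past it and lower (adjusted p at most 0.05 and a log2 fold change of at least 0.2 in size). These shares, 1.96% and 0.131%, are the background for the members, and 11.8% of all genes had groups that did not overlap.

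A count is the number of reads that fell anywhere in the genomic interval of a transcript, introns and both strands included. That strand was not used was read from the table: in 742 of 743 gene pairs in which a gene with a mean of at least 100 reads lies inside another on the opposite strand, the outer gene held at least as many reads in every library. A normalized count is that number divided by the effective library size (TMM) and multiplied by its mean over the 8 libraries.

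Of the 9 organizer genes, 2 rose with Fezf2 shRNA, Nrxn3 and Nlgn1, and 0 fell. The same 2 genes were the only members whose groups did not overlap. Without the adjustment, 3 members had a p under 0.05, Nrxn3 and Nlgn1 above control and Lrrtm2 below, while 19.6% of all genes had one. DESeq2 with its prior called the same 2 members, against 6.48% of all genes called higher by that tool, and called 0 members lower. The median log2 fold change was 0.09 over the 9 members and -0.03 over all genes tested.

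**Figure D1:**
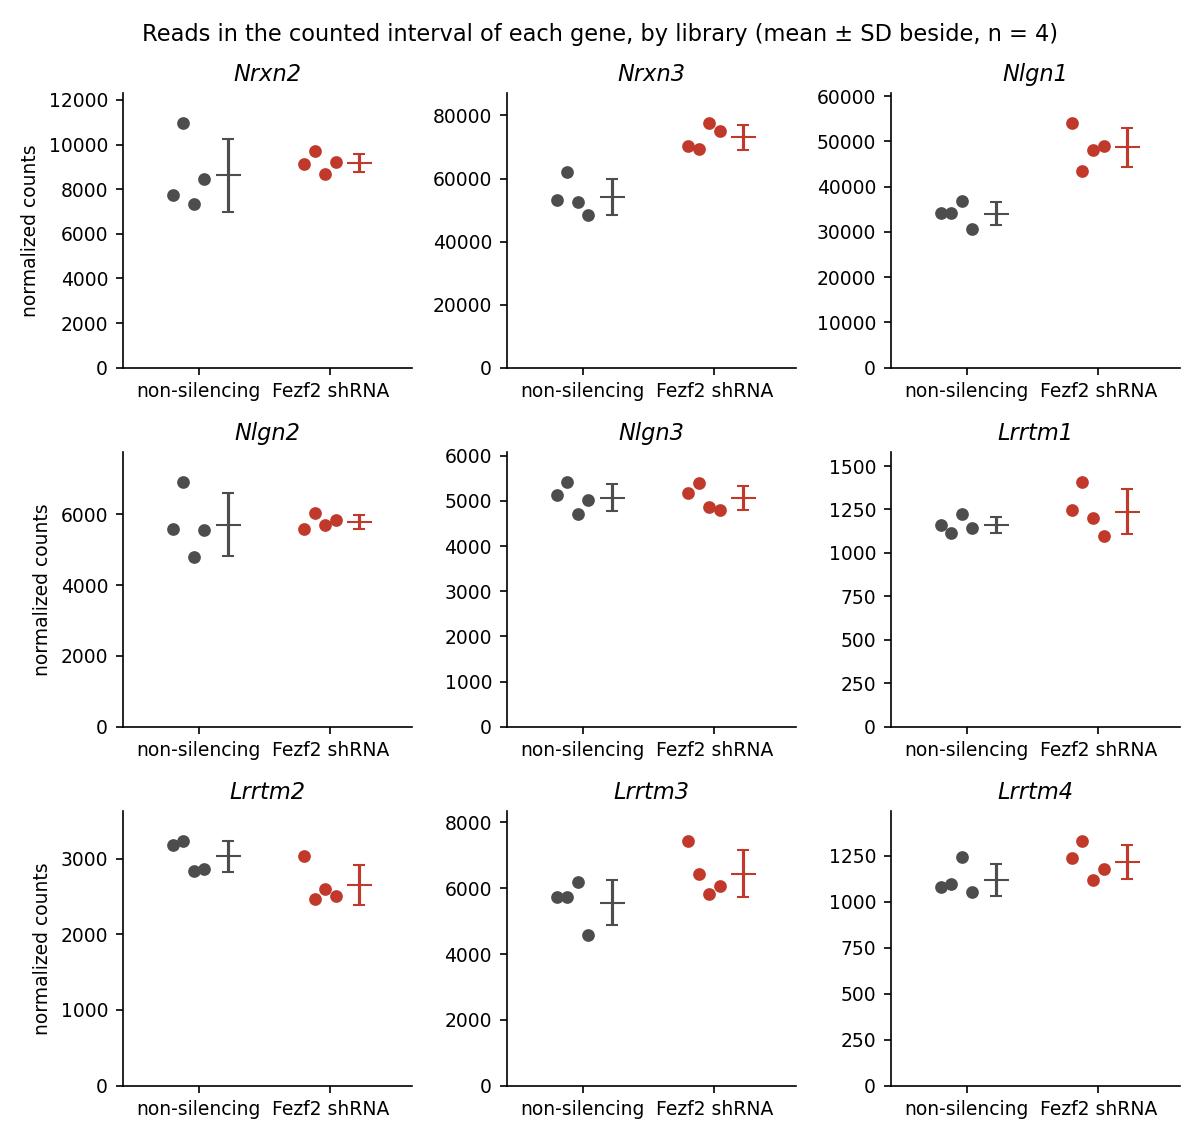
Normalized counts (vertical axes, from 0) of the 9 members in the 4 non-silencing shRNA libraries (grey) and the 4 Fezf2 shRNA libraries (red), with the mean and SD beside the points. Nrxn3 and Nlgn1 are the genes whose red points all lie above the grey ones, and in the other 7 panels the groups overlap.

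Nrxn3, a presynaptic neurexin, was counted over 1380 kb of chromosome 12 (88953399 to 90333060, plus strand, ENSMUST00000057634), of which 0.593% is exon. Its normalized counts in the control libraries were 53339, 62117, 52443 and 48362. In the Fezf2 shRNA libraries they were 70234, 69318, 77656 and 75033. Every Fezf2 shRNA library was above every control library. The mean rose 1.35-fold, from 54065 ± 5789 to 73060 ± 3959 (n = 4 per group, SD). This was a log2 fold change of 0.43 with SE 0.09 and an adjusted p of 0.0354 in edgeR. The exact permutation test gave p = 0.0286, the smallest that 4 against 4 libraries allow.

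Nlgn1, the neuroligin of glutamatergic synapses, was counted over 702 kb of chromosome 3 (25431811 to 26133734, minus strand, ENSMUST00000075054), of which 0.845% is exon. The control libraries held 34286, 34247, 36890 and 30652 normalized counts. The Fezf2 shRNA libraries held 54117, 43515, 48025 and 49092. The lowest Fezf2 shRNA library was above the highest control library. The mean rose 1.43-fold, from 34019 ± 2563 to 48687 ± 4353 (SD, n = 4 each), the largest log2 fold change of the 9 members at 0.52 with SE 0.09 and an adjusted p of 0.0276 in edgeR. Both transcripts of Nlgn1 in the table covered the same interval, so no part of the gene could be compared with another. RefSeq starts of Nlgn1 lie 20252 and 198175 bases before this interval, and reads in that 5′ part were not counted.

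Leaving out 1 library ended each call in most fits. The adjusted p of Nlgn1 went above 0.05 without control replicate 1 (0.0998) or 4 (0.0761) and without Fezf2 shRNA replicate 1 (0.0775), 3 (0.0683) or 4 (0.0638). The call of Nrxn3 was lost in those same 5 fits, at 0.112, 0.0923, 0.0812, 0.0868 and 0.0878, and also without control replicate 3, at 0.069. The log2 fold changes stayed between 0.46 and 0.57 for Nlgn1 and between 0.39 and 0.51 for Nrxn3 over the 8 fits. With all libraries, Nrxn3 was also lost with a filter over 1 CPM (adjusted p = 0.0594), with no filter (0.0503) and with its narrowest interval (0.0998), while Nlgn1 passed in these fits. The edgeR count of all genes past the threshold and higher ranged from 0 to 335 in these fits, and it was 0 without control replicate 1.

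Gene length moved with the fold changes of the whole table. The median log2 fold change was -0.12 over the 2153 genes with intervals under 10 kb, -0.07 over the 2983 genes of 10 to 30 kb and 0.01 over the 3119 genes of 30 to 100 kb. It was 0.15 over the 1297 genes of 100 to 300 kb and 0.29 over the 407 genes above 300 kb. Nrxn3 and Nlgn1 are in the longest class, and their log2 fold changes of 0.43 and 0.52 were above its median. In the longest of 20 bins of length (497 genes, median length 401 kb) the 10th to 90th percentiles were 0.09 to 0.47. Nrxn3 lay inside that range and Nlgn1 above it, and both are longer than the median of the bin.

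When each library's deviation from the mean of all libraries was smoothed over interval length and used as an offset, the log2 fold change was 0.10 with SE 0.08 for Nrxn3 (adjusted p = 0.698 in edgeR) and 0.20 with SE 0.06 for Nlgn1 (adjusted p = 0.282). Neither stayed past the threshold, and 0 genes of the whole table were called higher and 1 lower in that fit. Under the offset the unadjusted p was 0.00754 for Nlgn1 and 0.223 for Nrxn3, and the short interval of Lrrtm4 had the largest log2 fold change of the members, 0.23 with SE 0.07 (adjusted p = 0.283).

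**Figure D2:**
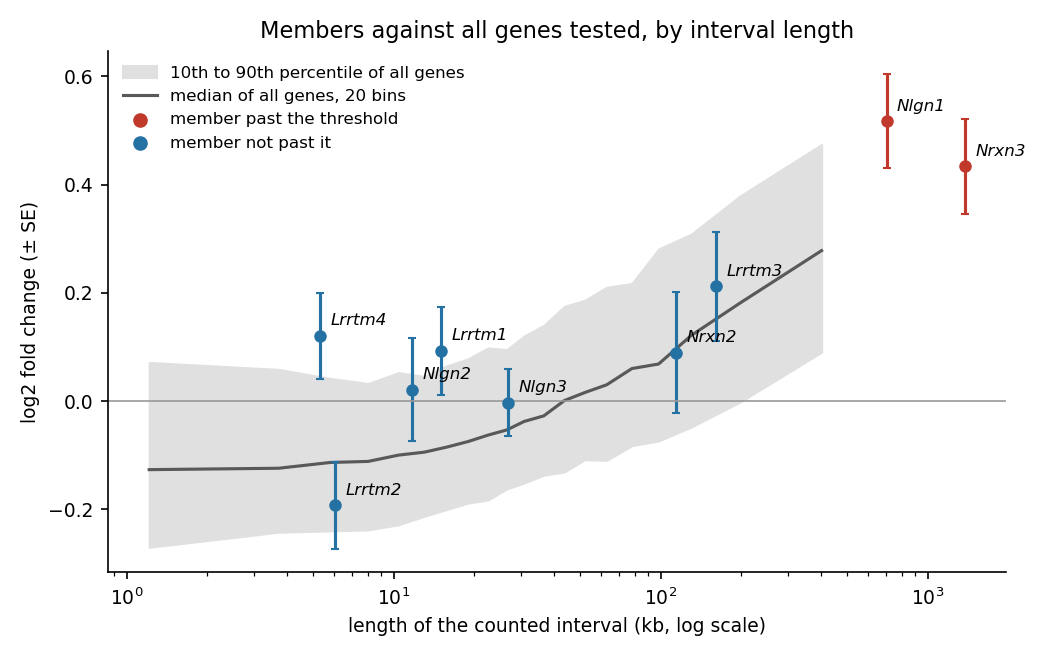
Log2 fold change (Fezf2 shRNA over non-silencing shRNA, ± SE, vertical axis) of the 9 members against the length of the counted interval in kb (log axis). The line and band give the median and the 10th to 90th percentiles of the 9959 genes in 20 bins of length. Nlgn1 and Nrxn3, in red, have the longest counted intervals, at 702 and 1380 kb, and lie to the right of the last bin's median length.

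Nrxn2, the other neurexin, was counted over 114 kb of chromosome 19 (6418738 to 6533216, plus strand). Its control libraries held 7720, 10973, 7334 and 8465 normalized counts. Its Fezf2 shRNA libraries held 9135, 9699, 8663 and 9202. Control replicate 2 was above all other libraries and the groups overlapped. The log2 fold change was 0.09 with SE 0.11 (adjusted p = 0.684 in edgeR), and 0.23 without control replicate 2 (adjusted p = 0.0972). A short antisense gene inside Nrxn2, Gm14964, held reads equal to 15.6% of those in the widest Nrxn2 interval, and strand was not used in the counting.

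Nlgn2, the neuroligin of inhibitory synapses, and Nlgn3 lie in short intervals of 11.7 kb and 26.8 kb, on chromosomes 11 and X. Nlgn2 had 5575, 6913, 4778 and 5553 normalized counts in the control libraries. It had 5579, 6034, 5709 and 5828 in the Fezf2 shRNA libraries. The Fezf2 shRNA libraries lay inside the range of the control libraries, at a log2 fold change of 0.02 with SE 0.10 (adjusted p = 0.922 in edgeR). Here too control replicate 2 held the highest count.

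Nlgn3 had 5134, 5423, 4716 and 5025 normalized counts in the control libraries and 5183, 5390, 4875 and 4806 in the Fezf2 shRNA libraries. The groups overlapped almost entirely. The log2 fold change was -0.0032 with SE 0.06 (adjusted p = 0.985 in edgeR), and its sign depended on the scaling. Gm21986, annotated on the same strand over 25.5 kb, shares most of this interval, so its reads and those of Nlgn3 cannot be told apart.

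Lrrtm2, the only Lrrtm gene below control, was counted over 6.02 kb of chromosome 18. Its control libraries held 3182, 3234, 2834 and 2867 normalized counts. Its Fezf2 shRNA libraries held 3033, 2470, 2601 and 2502. Of the 4 Fezf2 shRNA libraries, replicates 2, 3 and 4 were under every control library and replicate 1 was not. The log2 fold change was -0.19 with SE 0.08, at an unadjusted p of 0.0365 and an adjusted p of 0.226 in edgeR, and the exact permutation test gave p = 0.0857. It was below control in all 21 alternatives run, at -0.26 to -0.08. These changed the scaling, the filter, the tool, the interval, the threshold, the span offset, the replicate block or the set of libraries. Only 1 Lrrtm2 transcript was counted, so changing the interval or the threshold left its own reads the same. The value of -0.08 (SE 0.09) came with the span offset, and the median of all genes under 10 kb was -0.12.

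Lrrtm1 and Lrrtm4, counted over 15.1 kb and 5.29 kb of chromosome 6, were slightly above control. Lrrtm1 had 1161, 1114, 1225 and 1142 normalized counts in the control libraries and 1248, 1409, 1198 and 1095 in the Fezf2 shRNA libraries. Lrrtm4 had 1077, 1097, 1242 and 1054 in the control libraries and 1238, 1330, 1117 and 1177 in the Fezf2 shRNA libraries. The groups overlapped in both genes, at log2 fold changes of 0.09 with SE 0.08 for Lrrtm1 (adjusted p = 0.542 in edgeR) and 0.12 with SE 0.08 for Lrrtm4 (adjusted p = 0.410). The transcript followed for Lrrtm1 is not annotated as protein coding, and 20.1% of its interval is exon. The tested protein-coding intervals of Lrrtm1, of 2.79 and 2.82 kb, were each at -0.01 with SE 0.11 (adjusted p = 0.960 in edgeR).

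Lrrtm3 was counted over 162 kb of chromosome 10 (63928472 to 64090274, minus strand). It had 5740, 5726, 6188 and 4588 normalized counts in the control libraries. It had 7441, 6432, 5831 and 6060 in the Fezf2 shRNA libraries. Fezf2 shRNA replicates 1 and 2 were above every control library and the others were not. The log2 fold change was 0.21 with SE 0.10 (adjusted p = 0.271 in edgeR).

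**Figure D3:**
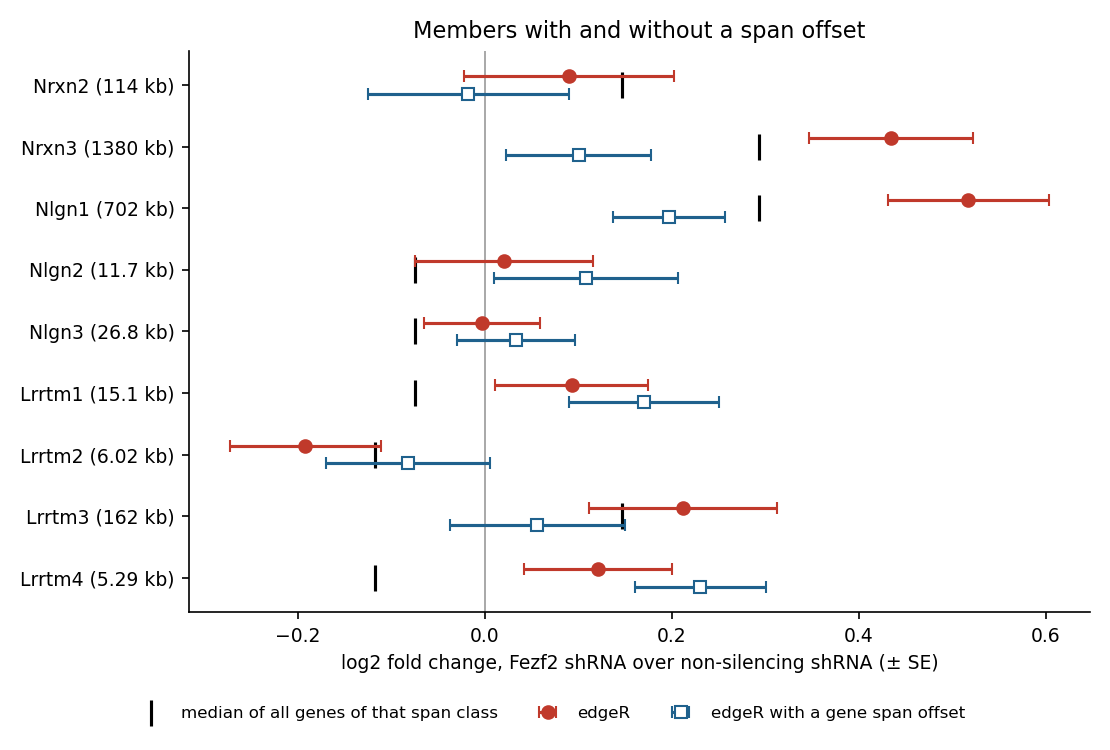
Log2 fold change of the 9 members (horizontal axis, ± SE) from edgeR (red circles) and from edgeR with a gene span offset (blue squares), with the median of all genes of the same length class as a black bar. With the offset Nrxn3 is at 0.10 and Nlgn1 at 0.20, while Lrrtm4 is at 0.23.

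Per kb of counted interval, the control libraries gave the highest level for Lrrtm2, at 503 ± 34.5 normalized counts per kb (SD, n = 4), and Nlgn2, at 486 ± 75.6. Lrrtm4 followed at 211 ± 16.0 and Nlgn3 at 190 ± 10.9. Then came Lrrtm1 at 76.8 ± 3.14, Nrxn2 at 75.3 ± 14.3, Nlgn1 at 48.5 ± 3.65, Nrxn3 at 39.2 ± 4.2 and Lrrtm3 at 34.4 ± 4.22. Neighbours in this order were within their spread for Lrrtm2 and Nlgn2, for Lrrtm4 and Nlgn3, for Lrrtm1 and Nrxn2, and for Nrxn3 and Lrrtm3. The order followed the exonic share of the interval in part: it was 100% in Lrrtm2 and 43.0% in Nlgn2, and 2.63% in Lrrtm3. It also depended on the transcript followed, so it is not an order of expression. In the control libraries Lrrtm3 was at 469 per kb in its 2.75-kb interval and Lrrtm1 at 307 in its 2.82-kb interval. Lrrtm4 was at 29.2 per kb over its widest interval.

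The second question was whether a gene's shorter and longer transcript intervals gave the same answer. Of the 55 member transcripts, 50 passed the filter in a fit over 32204 intervals of all genes, and 15 were past the threshold, all higher with Fezf2 shRNA. They were 10 of the 11 Nrxn3 intervals, both Nlgn1 intervals and 3 of the 6 tested Lrrtm4 intervals. In the same fit 4.95% of all intervals were past the threshold and higher, and since the intervals of a gene share reads, the 15 are not independent. Of the member intervals of 100 kb or more, 14 of 20 rose. Of the 23 member intervals under 30 kb, 0 did in edgeR, and 1, Lrrtm2 at -0.19, had an unadjusted p under 0.05. The share called among all intervals of these lengths was not computed. Over all genes the median log2 fold change also rose with length, so this contrast is not particular to the members.

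In Nrxn3, both the beta intervals and the widest intervals rose. The interval of the beta transcript ENSMUST00000110130, which starts at the second promoter printed above and runs over 521 kb, had a log2 fold change of 0.40 with SE 0.08 (adjusted p = 0.0247 in edgeR). The widest intervals, of 1540 and 1610 kb, had 0.42 and 0.43. The intervals confined to the first 128 kb of the gene had the lower values of 0.26 and 0.30, both past the threshold, and the only interval not past it, of 57.8 kb near the 5′ end, had 0.28 (adjusted p = 0.0679).

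The beta interval overlaps the 3′ part of the wider transcripts, so reads in it cannot be assigned to beta rather than wider transcripts. The reads outside it were counted separately. Those outside reads went from 48672 ± 5129 to 65429 ± 3394 normalized counts (SD, n = 4 each), and the groups did not overlap. The beta interval held 24.0% of the reads of the 1540-kb interval in the control libraries and 23.6% in the Fezf2 shRNA libraries. The log2 ratio of reads in the beta interval to remaining reads differed by -0.03 between the groups, less than the spread between libraries (exact permutation p = 0.543). This division was chosen after the values were seen.

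Nrxn2 gave the same small value wherever it was counted. All 15 of its intervals were between 0.02 and 0.15 in log2 fold change and none was past the threshold in edgeR. Its beta interval of 35.4 kb, which held 58.3% of the reads in either group, had 0.09, and the reads outside it were at 3593 ± 762 in control and 3828 ± 348 in Fezf2 shRNA libraries (exact permutation p = 0.6). Wider transcripts run through this beta interval too, so its reads cannot be assigned to beta transcripts.

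Lrrtm4 gave 2 different values. Its 3 intervals of about 791 kb start beside the short ones and run on to a distant 3′ end. They were at 23144 ± 3811 normalized counts in the control libraries and 33148 ± 3908 in the Fezf2 shRNA libraries for the widest, ENSMUST00000147663. Their log2 fold change was 0.52 with SE 0.12 (adjusted p = 0.0354 in edgeR), and the groups did not overlap. In a fit over genes with the widest interval of each, Lrrtm4 had the same 0.52 but an adjusted p of 0.0591. The 3 short intervals tested, of 5.29 to 6.86 kb at the 5′ end, were between 0.12 and 0.15 and not past the threshold. The longest of them, of 6.86 kb, held 78.1% of the exonic bases of the wide interval but 5.47% of its reads in the control libraries.

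Lrrtm3 differed in sign. Its 2 intervals of about 160 kb had log2 fold changes of 0.21 and 0.23, and its 2 short 5′ intervals of 1.20 and 2.75 kb had -0.15 and -0.16, none past the threshold in edgeR. The 2.75-kb interval held 57.1% of the exonic bases and 23.2% of the reads in the control libraries.

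**Figure D4:**
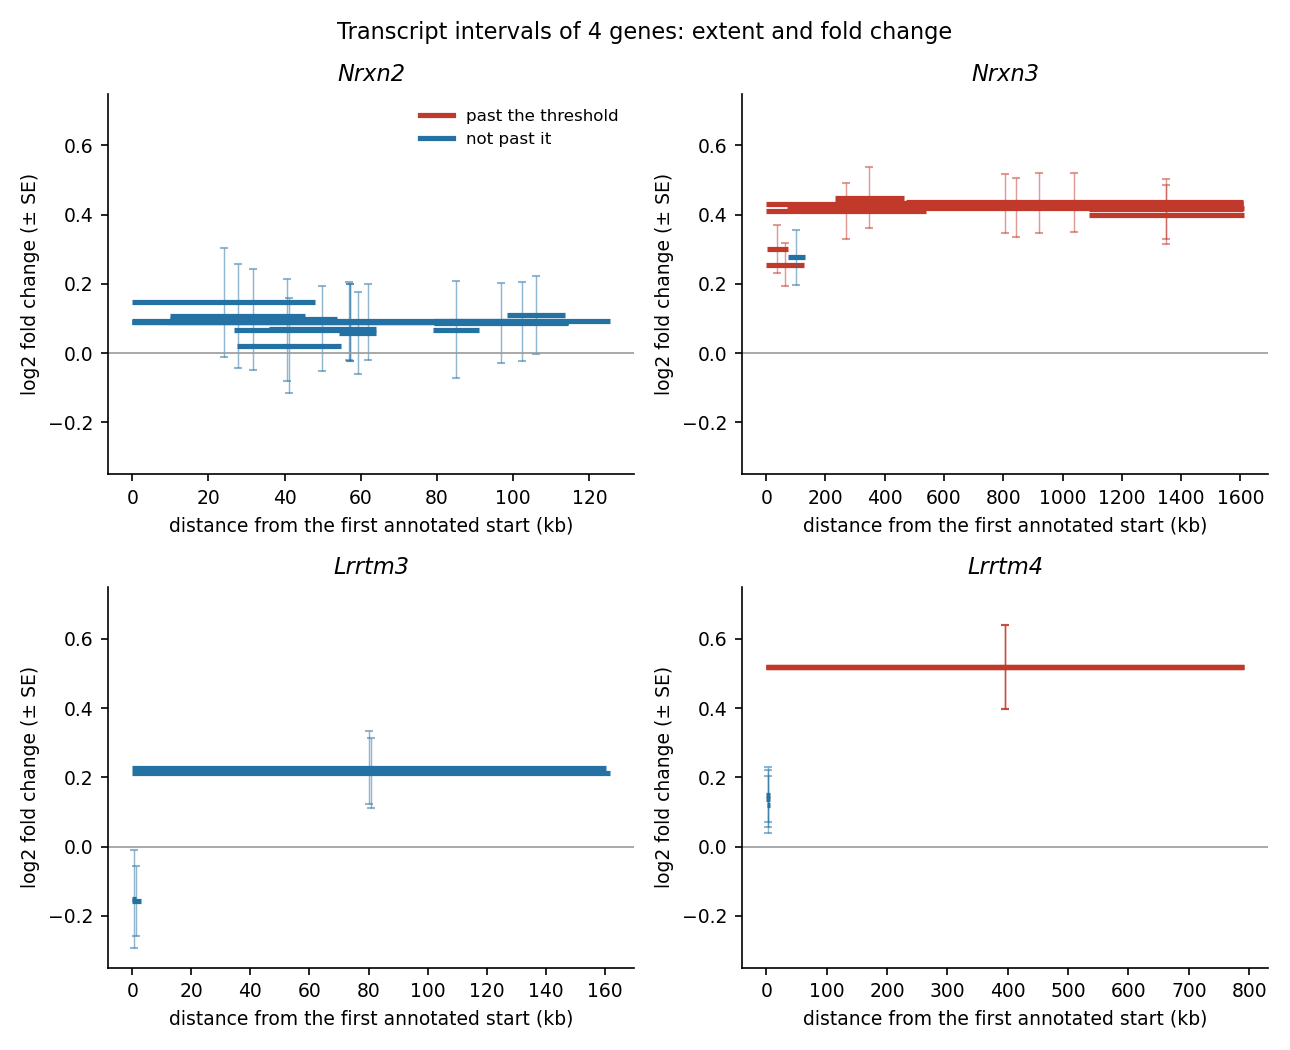
Transcript intervals of Nrxn2, Nrxn3, Lrrtm3 and Lrrtm4, each drawn as a bar from its start to its end in kb from the gene's first annotated start (horizontal axis) at its log2 fold change (vertical axis, ± SE), red where past the threshold. The Nrxn3 bars lie between 0.26 and 0.45 along the whole gene, while in Lrrtm4 the 3 long bars are at 0.52 and the short 5′ bars between 0.12 and 0.15.

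To set the parts of a gene against each other, the reads in the shortest interval with a mean of at least 100 reads were divided by the remaining reads of the widest interval that contains it, on a log2 scale. The 7 members with such a pair were tested with limma among 6341 genes. No member was past an adjusted p of 0.05, nor was any of the 6341 genes (0%), while 615 genes had an unadjusted p under 0.05. Lrrtm3 and Lrrtm4 were the 2 members among them, and the only 2 whose groups did not overlap, against 5.31% of all genes.

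In Lrrtm4 the log2 ratios were -6.71, -6.76, -6.39 and -6.24 in the control libraries. They were -7.29, -6.97, -7.12 and -7.13 in the Fezf2 shRNA libraries. Every Fezf2 shRNA library was under every control library, by 0.60 with SE 0.14 on average (adjusted p = 0.253 in limma, exact permutation p = 0.0286). The 2.58-kb inner part was at 248 ± 50.1 and 234 ± 22.5 normalized counts (SD, n = 4 each), and the remaining 789 kb at 22895 ± 3780 and 32914 ± 3895. The groups overlapped in the inner part and did not overlap in the remainder.

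In Lrrtm3 the log2 ratios were -3.22, -3.18, -3.10 and -3.40 in the control libraries. They were -4.03, -3.42, -3.46 and -3.51 in the Fezf2 shRNA libraries, where replicate 1 was far under the others, and the groups did not overlap. The difference was -0.38 with SE 0.15 (adjusted p = 0.431 in limma, exact permutation p = 0.0286) and -0.24 without that library (adjusted p = 0.556). The 1.20-kb 5′ part was at 541 ± 105 and 487 ± 49.8 normalized counts, and the remaining 161 kb at 5019 ± 579 and 5954 ± 739.

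The other 5 pairs had overlapping groups, with differences of -0.04 in Nrxn2, -0.16 in Nrxn3, 0.15 in Nlgn2, 0.12 in Nlgn3 and -0.07 in Lrrtm1. With the 19.5-kb 5′ interval of Nlgn3 as the inner part, chosen after the values were seen, the ratio was 0.11 higher with Fezf2 shRNA and the groups did not overlap (exact permutation p = 0.0286). That interval is 13.7% exon and the 7.30 kb after it are 90.4% exon. No adjusted p was computed for this division. Gm21986 covers all of the 19.5-kb interval and only part of the rest, so the ratio cannot be assigned to Nlgn3 alone.

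**Figure D5:**
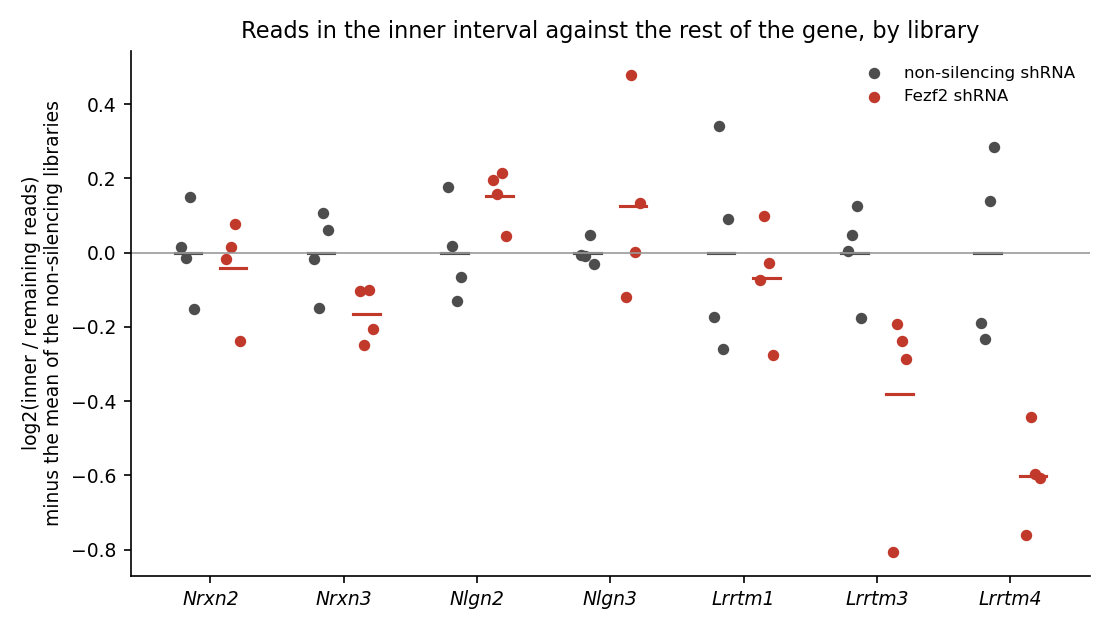
Log2 ratio of reads in the inner interval to the remaining reads of the gene, minus the mean of the non-silencing shRNA libraries (vertical axis), for each library of the 7 members with such a pair. Short bars are group means. The red points of Lrrtm3 and Lrrtm4 lie under all grey points, on average by 0.38 and 0.60.

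The Lrrtm genes inside alpha-catenin genes share reads with their hosts. Lrrtm2 held 52.5% to 61.7% of the reads counted for Ctnna1 over the 8 libraries, in 4.43% of its length. Lrrtm3 held 71.5% to 75.6% of those counted for Ctnna3, and Lrrtm1 3.23% to 4.87% of those counted for Ctnna2. Alpha-catenins link cadherins to the actin cytoskeleton. None of the 3 host genes was past the threshold in edgeR, at log2 fold changes of -0.13 for Ctnna1, 0.30 for Ctnna2 and 0.20 for Ctnna3 (adjusted p = 0.273, 0.0834 and 0.269). The medians of all genes in their length classes were 0.15, 0.29 and 0.29. With the span offset the hosts were at -0.27, -0.04 and -0.13 (adjusted p = 0.155, 0.856 and 0.509 in edgeR).

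Outside the nested Lrrtm genes, the hosts were tested exactly on their remaining reads, a division added after the values were seen. Ctnna2 had 25530 ± 2164 normalized counts in control and 31560 ± 2096 in Fezf2 shRNA libraries without Lrrtm1, with no overlap (exact permutation p = 0.0286). Over whole intervals, 11.8% of all genes had groups that did not overlap. Ctnna1 without Lrrtm2 had 2186 ± 204 and 2108 ± 184 (exact permutation p = 0.514). Ctnna3 without Lrrtm3 had 2080 ± 174 and 2349 ± 254 (exact permutation p = 0.171). Per kb, Lrrtm1 was at 76.8 normalized counts in the control libraries and the rest of Ctnna2 at 23.6. Reads of the 2 strands in that interval cannot be told apart.

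Of 61 listed partner genes, 53 passed the filter. They comprised ligands and linkers such as neurexophilins and cerebellins, receptors such as latrophilins, organizers that bind receptor phosphatases, scaffolds inside the cell, and the 3 alpha-catenins. Of the 53, 2 rose, 0 fell and 51 were not past the threshold in edgeR. The 2 are 3.77% of the partners tested, against 1.96% of all genes. At an unadjusted p under 0.05, 19 of the 53 partners were above control and 2 below, against 11.8% and 7.73% of all genes. DESeq2 with its prior called 12 partners higher and 0 lower, against 6.48% of all genes called higher. The partners had a median log2 fold change of 0.09, and of 0.01 with the span offset. Their median interval was 83.2 kb, against 28.5 kb over all genes tested. The list was chosen with earlier results of these data known, so these shares do not test the partners as a set.

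The partners that rose were Il1rapl2, a member of the interleukin-1 receptor accessory protein family, and Nxph1, a neurexophilin that binds alpha-neurexins. Il1rapl2 went from 4243 ± 585 to 6495 ± 903 normalized counts (n = 4 per group, SD), at a log2 fold change of 0.61 (adjusted p = 0.0309 in edgeR). Nxph1 went from 3017 ± 224 to 3884 ± 327, a log2 fold change of 0.36 (adjusted p = 0.0400). Both are long, at 1195 and 299 kb, and with the span offset neither stayed past the threshold (adjusted p = 0.284 and 0.614). Nxph1 was also lost with library totals as the scaling (0.0636), and Il1rapl2 with the replicate number as a block (0.0769). With 1 library left out, Il1rapl2 passed without control replicate 2 or Fezf2 shRNA replicate 2 and had an adjusted p of 0.0524 to 0.102 in the other 6 fits, while Nxph1 passed without control replicate 3 and had 0.0503 to 0.110 in the other 7.

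The next partner above control was Lrfn5, a postsynaptic adhesion gene of 321 kb, at 0.40 (adjusted p = 0.0515 in edgeR). With the span offset it was at 0.16 (adjusted p = 0.501). The partners with the smallest p below control were Lin7c and Lin7b, scaffold subunits that join Cask, at -0.18 and -0.25, and Sparcl1, the astrocyte gene for hevin that bridges neurexin and Nlgn1, at -0.22 (adjusted p = 0.139, 0.262 and 0.204). Sparcl1 was at 56064 ± 6297 normalized counts in control and 48184 ± 1730 in Fezf2 shRNA libraries, with no overlap between groups.

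None of the 44 tested genes among 56 cell type markers was past the threshold in edgeR, while 2 were above and 11 below control at an unadjusted p under 0.05, against 11.8% and 7.73% of all genes. Summed over each list, the log2 ratio of Fezf2 shRNA to control means was 0.07 for excitatory neurons and -0.09 for inhibitory neurons, with overlapping groups. It was -0.02 for astrocytes, -0.44 for oligodendrocytes, -0.25 for oligodendrocyte precursors, 0.72 for microglia and -0.16 for endothelial cells. The groups overlapped in each of these lists too (exact permutation p = 0.571, 0.2, 0.0571, 0.0571 and 0.314). Of the 8 endothelial markers, 2 were tested. The summed microglia markers were 10028 to 13611 normalized counts in the control and 12688 to 25561 in the Fezf2 shRNA libraries, and the median log2 fold change of the 6 tested markers was 0.06. No defining marker was at 0 in all libraries. The part of these cells in the counts of the members was not tested.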

How the data were processed

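RNA was measured in 8 M1 libraries, 4 per group, prepared with a TruSeq total RNA kit. Per the labels and the study's methods, the authors trimmed adapters, aligned reads to mm10 with TopHat2 2.1.1 and counted reads over Ensembl transcript intervals with bedtools 2.26.0 multicov. A strand setting is not given in the sources used here. The deposited values are raw read counts. A second deposited table, of the authors' DESeq2 comparison (fold changes and p-values), was not used. GENCODE M21 gave symbols for 91320 of 94647 transcripts, and the 3327 others, with 1.82% of the counts, were left out.

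Genes above 8 CPM in 4 or more libraries were tested with edgeR 4.0.16 (TMM, quasi-likelihood, Benjamini-Hochberg adjustment over all genes, R 4.3.3), and intervals likewise. Inner to remaining reads were compared with limma 3.58.1 after adding 1 to each count, and single values with a two-sided exact permutation test. DESeq2 1.42.0, other scalings, filters, intervals, a span offset (loess, span 0.3), a replicate block and leaving out each library were alternatives. The edgeR and limma steps were tested on simulated data (200 changed genes of 9959: 86.5% were called). Members, partner and marker lists were chosen with earlier results of these data known. Named partners were the 3 with the smallest p in each direction. No 2 libraries of a group agreed within sampling noise. Sequences are RefSeq's, build GRCm38.p6.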

Additional observations from a re-analysis of the deposited data

Results flagged for a closer look

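In 3 of the 52 groups of 4 libraries examined (genes and ratios named above), 1 library stood further from the others than Dixon's critical value for 4 samples allows. Chance gives such a library in about 1 group in 20. Ctnna2, host of Lrrtm1, had 23455 normalized counts in non-silencing shRNA replicate 4 and 27430 to 28069 in the other control libraries. Lrfn5 had 16519 in Fezf2 shRNA replicate 1 and 13065 to 13459 in the other Fezf2 shRNA libraries. The log2 ratio of inner to remaining reads of Lrrtm3 was -4.03 in Fezf2 shRNA replicate 1 and -3.51 to -3.42 in the others.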

How the results depend on the processing

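The count of 2 members past the threshold was 1 with a filter over 1 CPM, with no filter, with the replicate block and with the narrowest interval, each time because Nrxn3 was lost, and 0 with the gene span offset, with or without the block. The counts of all genes higher and lower were 79 and 5 with the filter over 1 CPM, 100 and 3 with no filter, 645 and 89 by DESeq2 with its prior, and 658 and 94 without it. They were 84 and 6 with the block, 0 and 1 with the span offset, 1 and 1 with both, and 96 and 5 with the narrowest interval. Leaving out 1 library gave 0 to 2 members, 0 to 335 genes higher and 0 to 33 lower. With all libraries 195 genes were higher, inside this range. Each of these fits also had fewer residual degrees of freedom, and the cause of the range was not tested. Same-numbered libraries of the 2 groups correlated at -0.13 to 0.30 in their deviations and 4 of 8 correlated best with their own number, so the numbers were not taken as pairs. With the block, Nrxn3 had an adjusted p of 0.0735 in edgeR. Signs turned in members not past the threshold. Nlgn3 was 0.0034 with the median of ratios, 0.0054 by TMM without the 10 most counted genes, 0.0051 with no filter, 0.0032 and 0.0034 by DESeq2, and 0.033 with the span offset, with or without the block. It ran from -0.034 to 0.030 over the libraries left out. Nlgn2 was -0.0040 with library totals and from -0.046 to 0.13 with a library left out. Nrxn2 was -0.018 with the offset and -0.0056 with offset and block. Lrrtm3 was -0.14 with its narrowest interval. Inner against remaining reads ran from -0.092 to 0.025 in Nrxn2 and from -0.16 to 0.045 in Lrrtm1 with a library left out. No pair of any member had an adjusted p of at most 0.05 under any alternative. Nlgn3, Lrrtm1 and Lrrtm4 gave no value with the narrowest interval, since too few reads were left. Counts cover introns, both strands and overlapping genes, so spliced and unspliced RNA of a member cannot be told apart.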

Other observations

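Gphn, the gene of the inhibitory scaffold gephyrin that gathers at synapses with Nlgn2, was singled out among the partners after its values were seen. Its normalized counts over 458 kb of chromosome 12 were 6235, 6410, 5972 and 5681 in the control libraries. They were 30612, 6365, 40678 and 6751 in the Fezf2 shRNA libraries. Replicates 1 and 3 of the Fezf2 shRNA group were far above all 6 other libraries, and replicates 2 and 4 were near the control range. The log2 fold change of 1.80 had SE 0.52 and was not past the threshold (adjusted p = 0.102 in edgeR). The only other Gphn transcript in the table covers nearly the same interval, so the position of these reads within the gene could not be narrowed down.

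The latrophilin gene Adgrl2, the neuroligin-binding gene Mdga2 and the glutamate receptor gene Grid1 were also looked at after their values were seen. They had log2 fold changes of 0.46, 0.35 and 0.28, none past the threshold in edgeR (adjusted p = 0.151, 0.0996 and 0.178). Their intervals are 100, 756 and 763 kb long. With the span offset they were at 0.36, 0.02 and -0.05 (adjusted p = 0.411, 0.950 and 0.869 in edgeR). The short organizer genes Slitrk1 to Slitrk5, which lie in intervals of 3.48 to 12.1 kb, were between -0.05 and 0.0032, none past the threshold.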
